A study of Mus musculus with 16 samples.

Results

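The genes described here are 9 genes that intestinal absorptive cells use to build and ship chylomicrons, the lipoprotein particles that carry dietary fat. They are Apoa1, Apoa4, Apob, Apoc2, Apoc3, Apoe, Mttp, Creb3l3 and Sar1b, and they were chosen by name from the 21965 genes of a table of read counts. Each of the 9 has a single gene in that table. RNA from the ileum, the last stretch of the small intestine, was sequenced from 16 male C57BL/6 mice, with 1 library per mouse. Wild-type (WT) mice were compared with littermates carrying the Caenorhabditis elegans fat-1 transgene, which the labels give as Fat1+/- and which makes n-3 polyunsaturated fatty acids from n-6 fatty acids. Mice started at 8 to 10 weeks of age on a Lieber-DeCarli liquid diet and were fed for 6 weeks, either with ethanol (EtOH) raised in steps to 6% (v/v) for the last 3 weeks, or pair-fed (PF) without it. The PF groups held 4 WT and 4 fat-1 mice, and the EtOH groups 3 WT and 5 fat-1 mice. The transgene is active throughout the body, so that no group has it in the intestine alone, and it is no gene of the table, so that the genotype could not be checked there. PF mice hold library numbers 1 to 8 and EtOH mice 9 to 16, and library order and diet cannot be told apart.

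After a meal, enterocytes rebuild triglyceride from absorbed fatty acids in the endoplasmic reticulum (ER). Microsomal triglyceride transfer protein (Mttp) loads this lipid onto apolipoprotein B (Apob), the scaffold of the particle, which then leaves the ER in transport carriers coated by COPII. Sar1b is a GTPase that starts the COPII coat, and Creb3l3 (CREB-H) is a membrane-bound transcription factor of liver and intestine that is cut free to act in the nucleus. Apoa4 and Apoa1 join the particle surface. Apoc2 activates lipoprotein lipase in the circulation, Apoc3 slows lipolysis and uptake, and Apoe is a ligand for lipoprotein receptors that macrophages also make.

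In the mouse genome (GRCm38), Apoa1, Apoc3 and Apoa4 lie side by side on chromosome 9 within 14880 bases. Apoa1 spans chr9:46228580-46230466 on the plus strand, Apoc3 chr9:46232933-46235636 on the minus strand and Apoa4 chr9:46240696-46243459 on the plus strand. Apoc2 (chr7:19671579-19677941) and Apoe (chr7:19696109-19699188) form a second cluster on the minus strand of chromosome 7. The others are scattered, with Apob at chr12:7977648-8016835, Mttp at chr3:138089854-138144968, Creb3l3 at chr10:81084324-81098874 and Sar1b at chr11:51763687-51791925. Of the Apoc2 transcript windows of 75 bases, 77.5% also occur in Gm44805, an overlapping gene on the same strand that had 0 reads in every library, so that the Apoc2 counts are uncertain. Apoa4 and Mttp overlap genes on the opposite strand, and the strand setting of the counting is not given in the sources used here.

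Promoters are shown for 4 members: Creb3l3, Apob, Apoe and Apoc2. Creb3l3 passed the test as lower in fat-1 EtOH mice, and Apob and Apoe did not pass. Apoc2 lies in the chromosome 7 cluster of Apoe. Whether these genes differ in their response to EtOH was not tested. The sequences, from RefSeq on GRCm38.p6, are the bases before the start of the gene, 5′ to 3′, and capitals mark matches to a GATA motif (TGATAA or AGATAA) or a TATA box (TATAAA) on either strand.
Apoc2, chr7:19677942-19678191, minus strand: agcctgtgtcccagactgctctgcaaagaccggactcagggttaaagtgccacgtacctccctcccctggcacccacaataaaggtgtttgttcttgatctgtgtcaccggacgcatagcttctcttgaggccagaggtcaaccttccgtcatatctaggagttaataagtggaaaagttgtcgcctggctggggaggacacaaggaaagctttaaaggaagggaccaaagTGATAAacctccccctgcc
Creb3l3, chr10:81098875-81099122, minus strand: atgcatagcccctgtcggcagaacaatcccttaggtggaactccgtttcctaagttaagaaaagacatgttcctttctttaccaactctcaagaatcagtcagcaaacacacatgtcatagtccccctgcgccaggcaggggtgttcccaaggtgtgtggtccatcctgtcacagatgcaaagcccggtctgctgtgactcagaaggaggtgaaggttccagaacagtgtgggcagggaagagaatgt
Apob, chr12:7977427-7977647, plus strand: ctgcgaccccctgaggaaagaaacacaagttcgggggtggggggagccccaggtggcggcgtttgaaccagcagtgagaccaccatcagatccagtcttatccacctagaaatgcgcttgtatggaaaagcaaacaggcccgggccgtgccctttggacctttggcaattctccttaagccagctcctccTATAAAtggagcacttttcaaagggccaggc
Apoe, chr7:19699189-19699438, minus strand: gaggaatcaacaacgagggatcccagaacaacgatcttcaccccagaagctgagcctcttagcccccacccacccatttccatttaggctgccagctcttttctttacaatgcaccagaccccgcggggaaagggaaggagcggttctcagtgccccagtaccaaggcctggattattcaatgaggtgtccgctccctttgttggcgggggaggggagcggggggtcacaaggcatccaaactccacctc
The GATA letters occur in the Apoc2 window and the TATA box in that of Apob. Over all 32851 windows of 250 bases, 16.6% hold the GATA letters and 12.4% the TATA box, which is in 11% of windows of 221 bases, the length shown for Apob. The HNF4 letters CAAAGTCCA, present in 0.384% of windows, were in none of the 4. Of the other letters searched, GTTAAT (6.43% of windows) and TTTATT (18.1%) were in the Apoc2 window, and TGACGT (6.47%) was in none of the 4. RefSeq windows were found for 8 of the 9 members. Bases past the GENCODE start of the gene were removed, which left some bases for 7 of them and none for Mttp, and in 5 the RefSeq start lies within 30 bases of the GENCODE start.

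Between 8422645 and 11438539 reads were counted per library, so that 3 reads, the floor used here, were worth 0.246 to 0.421 CPM. CPM are counts scaled to a common library size, here adjusted by the trimmed mean of M-values (TMM). Not all libraries looked like plain ileum. The summed level of 10 large intestine markers was 5905 CPM in WT EtOH mouse 2, 12805 in fat-1 EtOH mouse 3 and 14379 in fat-1 EtOH mouse 4, against 337 to 1064 CPM in the other 13. Most of this was Car1, a carbonic anhydrase of the colon, which reached 12193 CPM. The small intestinal enterocyte markers summed to 879 and 953 CPM in fat-1 EtOH mice 3 and 4, against 18491 to 26764 CPM in the other 6 EtOH libraries and 26367 to 42981 CPM in the PF libraries. Of these markers, 5 of 10 passed edgeR's test as lower among the fat-1 animals, against 18.8% of all genes tested. Among the WT animals 1 passed as lower, against 0.0796% of all genes in either direction. The median log2 fold changes of the 10 were -1.96 in fat-1 and -1.03 in WT mice. The part of these markers in the changes of the members was not tested. Markers of ileal bile acid handling were lowest in fat-1 PF mice 2 and 4, at 461 and 404 CPM, followed by fat-1 EtOH mice 3 and 4, at 912 and 1864 CPM. The summed smooth muscle markers were 937 to 1490 CPM in PF mice and 1935 to 4125 CPM in EtOH mice, without overlap. The 10 hepatocyte markers summed to 6.99 to 112 CPM over the libraries, with Tat, the highest of them, at 0.702 to 105 CPM, and albumin was at 3.28 CPM or less. In tissue RNA, fewer cells of a type and less RNA per cell cannot be told apart.

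**Figure D1:**
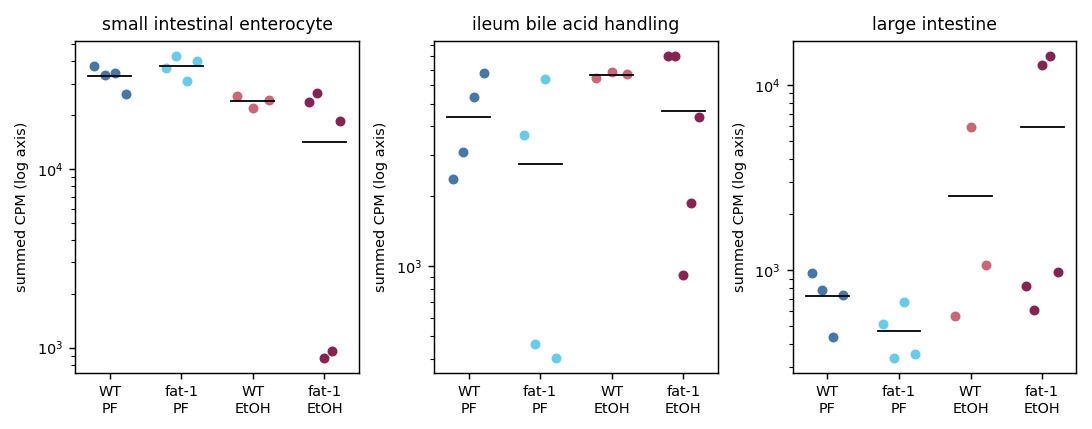
Summed CPM of 3 marker lists (log axis) in each library by group, with 1 point per mouse and a line at the group mean. WT EtOH mouse 2 and fat-1 EtOH mice 3 and 4 stand above the others in large intestine markers, and fat-1 EtOH mice 3 and 4 are the lowest in small intestinal enterocyte markers.

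Apoa4 had the widest range of the members that were read in every library. It was read at 11564, 5814, 6567 and 1701 CPM in the WT PF mice and at 10809, 40396, 8677 and 39628 CPM in the fat-1 PF mice. It was at 327, 316 and 286 CPM in the WT EtOH mice and at 396, 271, 9.50, 16.04 and 414 CPM in the fat-1 EtOH mice. Every EtOH mouse was below every PF mouse. The 2 highest fat-1 PF mice are those with few ileal markers, and the 2 lowest fat-1 EtOH mice are those with few enterocyte markers. The group mean was 112-fold lower in fat-1 EtOH than in fat-1 PF mice and 20.7-fold lower in WT EtOH than in WT PF mice. In fat-1 mice Apoa4 fell by 6.81 on the log2 scale (SE 1.10, adjusted p = 0.000636, edgeR's quasi-likelihood test, adjusted over all genes tested). It fell by 6.07 without the 3 libraries high in large intestine markers (SE 0.81, edgeR adjusted p = 0.00208), and its log2 fold change was -4.75 when fat-1 PF mice 2 and 4 were left out as well (SE 0.62, edgeR adjusted p = 0.0119), both choices made after seeing the data. In WT mice the log2 fold change was -4.37 (SE 1.23, adjusted p = 0.186), which did not pass the test.

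Apoc3, the neighbour of Apoa4, followed the same order of groups. It was read at 326, 221, 194 and 52.1 CPM in WT PF mice and at 242, 1101, 375 and 1035 CPM in fat-1 PF mice. EtOH mice had 14.6, 18.4 and 11.3 CPM in the WT group and 19.7, 24.2, 0.573, 0.802 and 14.9 CPM in the fat-1 group. Again no EtOH mouse reached the lowest PF mouse. As for Apoa4, the 2 highest fat-1 PF mice are those with few ileal markers and the 2 lowest fat-1 EtOH mice those with few enterocyte markers. In fat-1 mice Apoc3 fell by 5.84 on the log2 scale (SE 0.95, edgeR adjusted p = 0.000643). In the same 2 fits without libraries chosen by their markers, the value was -5.09 (SE 0.74, edgeR adjusted p = 0.00209) and -3.96 (SE 0.62, edgeR adjusted p = 0.0161). In WT mice the log2 fold change was -3.75 (SE 1.07, edgeR adjusted p = 0.187). The ratio of Apoa4 to Apoc3 reads moved far less than either gene, from 23.2 to 44.7 in PF libraries and from 11.2 to 27.7 in EtOH libraries.

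Apoa1, the main protein of high-density lipoprotein, was read at 9525, 10443, 10346 and 6004 CPM in WT PF mice and at 8353, 13664, 13528 and 15628 CPM in fat-1 PF mice. WT EtOH mice had 3878, 3766 and 3397 CPM, and fat-1 EtOH mice 4147, 5001, 36.1, 53.8 and 2986 CPM. No EtOH mouse reached the lowest PF mouse, and fat-1 EtOH mice 3 and 4 were far below the other 3 of their group. In fat-1 mice the log2 fold change was -2.39 (SE 0.97, edgeR adjusted p = 0.0658), against -1.30 in WT mice (SE 1.12, edgeR adjusted p = 0.622), and neither passed edgeR's test. DESeq2 called it in fat-1 mice (adjusted p = 0.0316). When the 3 libraries high in large intestine markers were left out, a choice made after seeing the data, the value in fat-1 mice was -1.63 (SE 0.26, edgeR adjusted p = 0.00209).

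**Figure D2:**
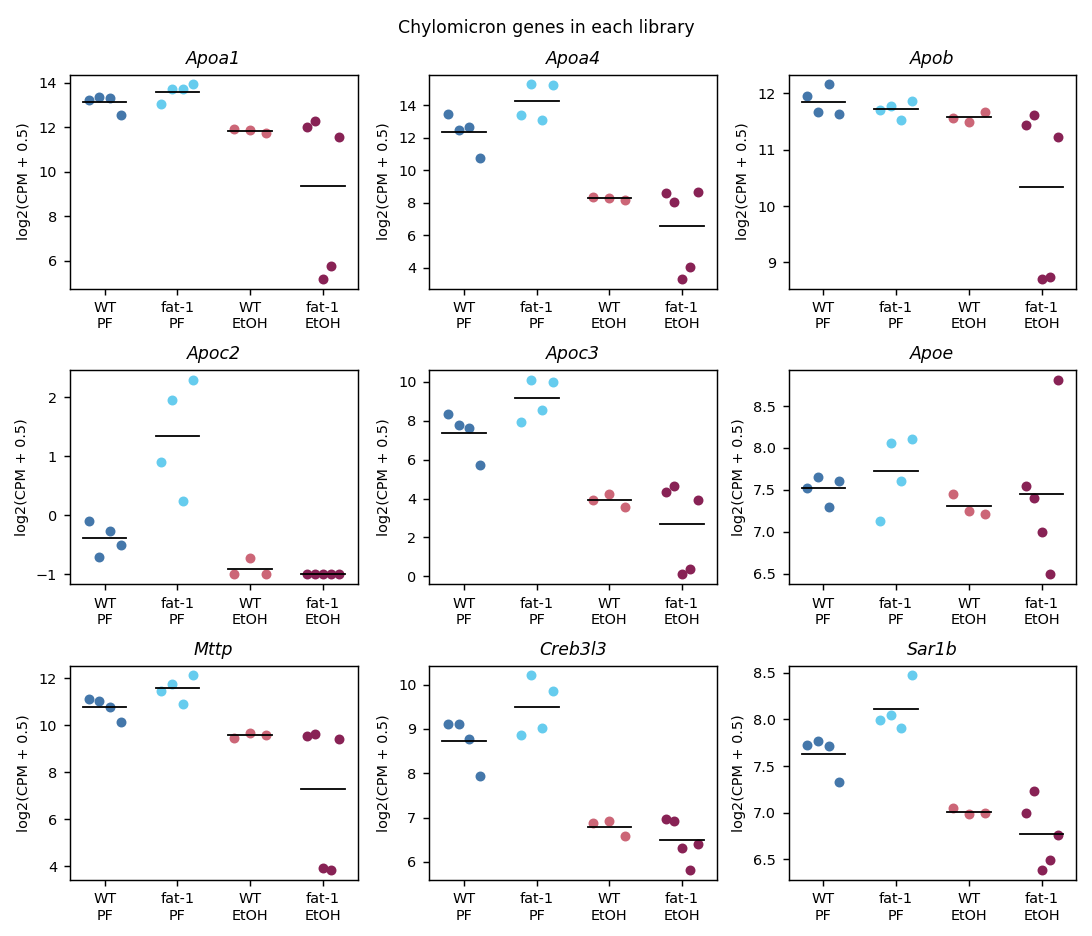
Level of each of the 9 members in each mouse as log2(CPM + 0.5), by group, with a line at the group mean. EtOH mice lie below PF mice without overlap for 6 of the 8 members other than Apoc2, against 4.66% of all genes, and for Apob and Apoe the groups overlap. A value of -1 for Apoc2 is 0 reads.

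Mttp, which loads lipid onto Apob, was read at 2229, 2100, 1774 and 1137 CPM in WT PF mice, at 2812, 3470, 1923 and 4457 CPM in fat-1 PF mice, at 709, 817 and 770 CPM in WT EtOH mice and at 734, 789, 14.5, 13.8 and 690 CPM in fat-1 EtOH mice. Here too every EtOH mouse was below every PF mouse, and the 3 fat-1 EtOH mice with enterocyte markers were within the range of 690 to 789 CPM. In fat-1 mice Mttp fell by 2.82 on the log2 scale (SE 0.90, edgeR adjusted p = 0.0245), and without the 3 libraries high in large intestine markers by 2.07 (SE 0.28, edgeR adjusted p = 0.00195). The call was lost when fat-1 PF mouse 4 was left out (edgeR adjusted p = 0.0565) and when only the 2 fat-1 groups were fitted (edgeR adjusted p = 0.0951). In WT mice the log2 fold change was -1.24 (SE 1.02, edgeR adjusted p = 0.604).

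Apob was at 2406 to 4577 CPM in 14 of the 16 mice. WT PF mice had 3951, 3236, 4577 and 3162 CPM, fat-1 PF mice 3351, 3490, 2939 and 3718 CPM, WT EtOH mice 3036, 2864 and 3257 CPM, and fat-1 EtOH mice 2773, 3119, 417, 426 and 2406 CPM. The diets overlapped in both genotypes, and the 2 low values are again those of fat-1 EtOH mice 3 and 4. The log2 fold change was -0.88 in fat-1 mice (SE 0.49, edgeR adjusted p = 0.162), against -0.29 in WT mice (SE 0.56, edgeR adjusted p = 0.850). Without the 3 libraries high in large intestine markers the fat-1 value was -0.26 (SE 0.16, edgeR adjusted p = 0.238).

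Apoa4, Apoa1 and Mttp were also read against Apob in the same library. There were 0.538 to 11.6 Apoa4 reads per Apob read in PF libraries and 0.0228 to 0.172 in EtOH libraries. The ratio of Apoa1 to Apob reads was 1.90 to 4.60 in PF and 0.0866 to 1.60 in EtOH libraries, and that of Mttp to Apob reads 0.360 to 1.20 and 0.0324 to 0.287. None of the 3 ratios overlapped between the diets. They describe the libraries, and carry no test.

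**Figure D3:**
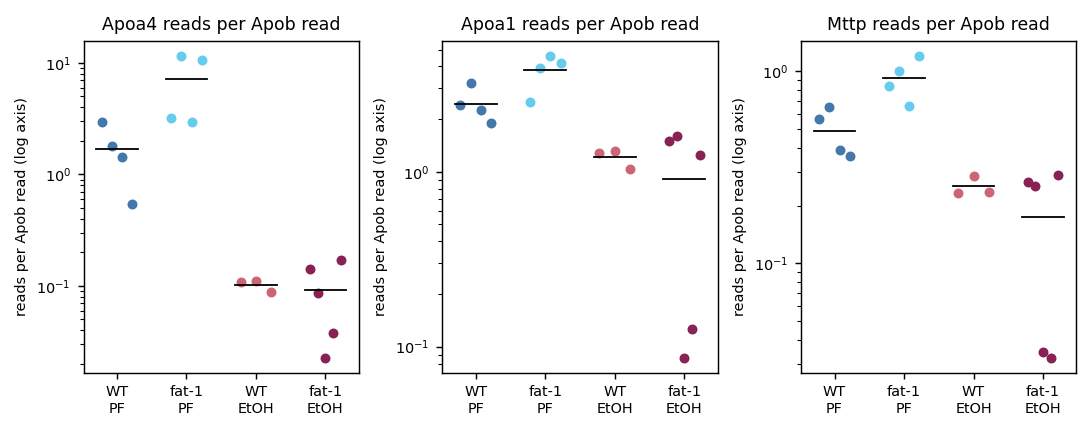
Reads of Apoa4, Apoa1 and Mttp per Apob read (log axis) in each library by group, with a line at the group mean. The PF libraries lie above the EtOH libraries in each panel, with Apoa4 at 0.538 to 11.6 in PF and 0.0228 to 0.172 in EtOH libraries.

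Creb3l3, the transcription factor, was read at 555, 555, 436 and 245 CPM in WT PF mice and at 468, 1183, 521 and 924 CPM in fat-1 PF mice. WT EtOH mice had 117, 121 and 94.8 CPM, and fat-1 EtOH mice 125, 122, 78.7, 56.0 and 84.0 CPM. All 8 EtOH mice were below all 8 PF mice, and fat-1 EtOH mice 3 and 4 were the lowest of their group. In fat-1 mice Creb3l3 fell by 3.06 on the log2 scale (SE 0.33, edgeR adjusted p = 0.000202). In WT mice the log2 fold change was -2.01 (SE 0.38, edgeR adjusted p = 0.0656), just outside the threshold.

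Sar1b was read at 211, 218, 209 and 160 CPM in WT PF mice, at 255, 264, 240 and 354 CPM in fat-1 PF mice, at 132, 127 and 128 CPM in WT EtOH mice and at 127, 150, 83.2, 89.6 and 108 CPM in fat-1 EtOH mice. The groups did not overlap between the diets. It fell by 1.32 on the log2 scale in fat-1 mice (SE 0.17, edgeR adjusted p = 0.000248), and the log2 fold change in WT mice was -0.63 (SE 0.19, edgeR adjusted p = 0.191). Its close relative Sar1a shares no 75-base window with Sar1b. Sar1a was at 104 to 119 CPM in WT PF, 112 to 131 CPM in fat-1 PF, 102 to 111 CPM in WT EtOH and 102 to 145 CPM in fat-1 EtOH mice, and its log2 fold change in fat-1 mice was 0.03 (SE 0.10, edgeR adjusted p = 0.822).

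Apoe, on chromosome 7, was read at 183, 201, 157 and 195 CPM in WT PF mice, at 140, 267, 195 and 274 CPM in fat-1 PF mice, at 175, 151 and 149 CPM in WT EtOH mice and at 187, 169, 127, 89.6 and 449 CPM in fat-1 EtOH mice. The diets overlapped in both genotypes. Mouse 5 of the fat-1 EtOH group, the highest, also had the highest summed macrophage markers (918 CPM, against 160 to 451 CPM in the others). It was also the highest in B cell markers (508 CPM, against 2.32 to 104 CPM) and adipocyte markers (644 CPM, against 122 to 377 CPM). The part of these cells in the Apoe level of this mouse was not tested. The log2 fold change was -0.10 in fat-1 mice (SE 0.36, edgeR adjusted p = 0.843), against -0.22 in WT mice (SE 0.41, edgeR adjusted p = 0.846). Its sign in fat-1 mice changed to 0.05 with upper-quartile normalization.

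Apoc2 was near the limit of detection. WT PF mice had 4, 1, 3 and 2 reads, fat-1 PF mice 13, 24, 5 and 36 reads, WT EtOH mice 0, 1 and 0 reads, and all 5 fat-1 EtOH mice 0 reads. It passed the filter on low counts only through the fat-1 PF group, so that its test is not given and it is left out of all counts of members that passed. The mean of the fat-1 PF mice, 2.46 CPM, was at least 9.40-fold higher than that of the fat-1 EtOH mice, set at the floor of 3 reads in each library. No fold is given in WT mice, where the groups were at or near this floor.

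Across the 8 members other than Apoc2, 5 passed the test in fat-1 mice, all of them lower with EtOH. Of the 13811 genes tested, 37.4% passed in either direction and 18.8% were lower. The members that passed were Apoa4, Apoc3, Mttp, Creb3l3 and Sar1b. The median log2 fold change was -2.60 over the 8 and 0.05 over all genes tested. In WT mice 0 of the 8 passed, against 0.0796% of all genes, and 4 had an unadjusted p under 0.05, against 14.1% of all genes. These were Apoa4, Apoc3, Creb3l3 and Sar1b. The WT count depended on the fit, as did that over all genes. DESeq2 called 3 of the 8, against 1.86% of all genes, limma voom with sample quality weights 4, against 20.7%, and edgeR on the 2 WT groups alone 6, against 8.32%. In both genotypes 6 of the 8 members other than Apoc2 were lower without overlap, against 13.4% of genes in fat-1 and 12.1% in WT mice. In WT mice an exact permutation test cannot go below 0.0571 for a single gene, the value it gave for each of these 6, and in fat-1 mice it gave 0.0159, the smallest it allows. Over the 36 such tests, which include those of Apoc2, the adjusted values were 0.0816 in fat-1 and 0.114 in WT mice for these 6.

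**Figure D4:**
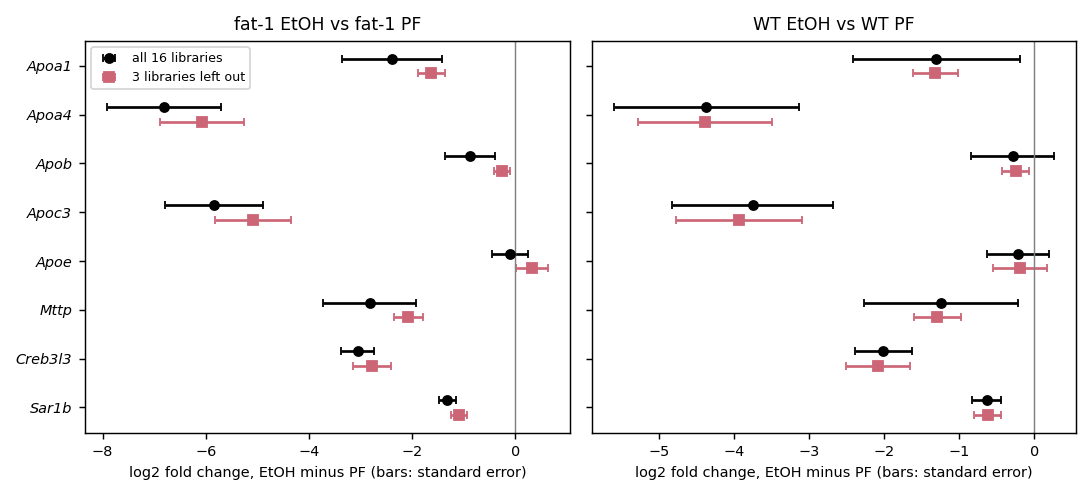
Log2 fold change of 8 members, EtOH minus PF, in fat-1 (left) and WT mice (right), from edgeR with all 16 libraries (circles) and without the 3 libraries high in large intestine markers (squares), with bars of 1 standard error. The fat-1 value of Apoa1 is -2.39 with all libraries and -1.63 without the 3.

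With the diet averaged over both genotypes, 5 of the 8 members other than Apoc2 passed the test, all lower, against 35.9% of all genes in either direction and 17.6% lower. Mttp kept its call in 8 of the 16 fits that leave out 1 mouse each, with an edgeR adjusted p of up to 0.0811. All 8 EtOH mice were below all 8 PF mice for 6 of the 8 members other than Apoc2, against 4.66% of all genes. Creb3l3 fell by 2.54 (SE 0.26, edgeR adjusted p = 8.83e-05) and Sar1b by 0.98 (SE 0.13, edgeR adjusted p = 0.000257) on the log2 scale. The difference between the genotypes in their response to EtOH was tested as an interaction. It passed for 0 of the 8, against 0% of all genes, and 2 had an unadjusted p under 0.05, against 8.26% of all genes. These were Creb3l3, with an interaction of -1.04 (SE 0.47, edgeR adjusted p = 0.595), and Sar1b, with -0.68 (SE 0.25, edgeR adjusted p = 0.595). Without the 3 libraries high in large intestine markers, the interaction was -0.70 for Creb3l3 (SE 0.51, edgeR adjusted p = 0.851) and -0.46 for Sar1b (SE 0.23, edgeR adjusted p = 0.819).

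Between the genotypes on the PF diet, 0 of the 8 members other than Apoc2 passed, against 0% of all genes, and 2 had an unadjusted p under 0.05, against 12.7% of all genes. These were again Creb3l3 and Sar1b. For Apoa4 the fat-1 PF mean was 3.88-fold that of the WT PF mice, with a log2 fold change of 1.96 (SE 0.98, edgeR adjusted p = 0.430). When the libraries of fat-1 PF mice 2 and 4, low in ileal markers, and the 3 high in large intestine markers were left out, this value was 0.59 (SE 0.54, edgeR adjusted p = 0.911). Between the genotypes on EtOH, 0 of the 8 passed, against 0.00724% of all genes, and 0 had an unadjusted p under 0.05 in edgeR and DESeq2, against 4.86% of all genes in edgeR.

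Levels of different genes were compared per exon length, as RPKM, the CPM divided by the exon length in kilobases. In WT PF mice the order was Apoa1 at 7346 ± 1692, Apoa4 at 3533 ± 2230, Mttp at 292 ± 78.6, Apob at 268 ± 47.8, Apoc3 at 195 ± 111, Sar1b at 159 ± 21.1, Creb3l3 at 149 ± 48.5, Apoe at 86.1 ± 8.99 and Apoc2 at 0.335 ± 0.174 RPKM (SD, n = 4). The neighbours from Mttp to Creb3l3 lay within their spread of each other at this length. The level of Apoc2 is uncertain, as are its counts. Per length of the longest transcript, Mttp was at 457, Apoc3 at 280, Apob at 268, Creb3l3 at 195 and Sar1b at 166 RPKM, so that Mttp stood apart from Apob and the order of the others changed. In fat-1 PF mice the mean of Apoa4 (13707 ± 9642 RPKM, SD, n = 4) was above that of Apoa1 (10350 ± 2518 RPKM, SD, n = 4), again within the spread. In WT EtOH mice Apob (219 ± 14.2 RPKM, SD, n = 3) stood above Apoa4 (171 ± 11.7 RPKM, SD, n = 3). The 9 members took 1.28% to 5.74% of all counted reads in PF libraries and 0.0925% to 0.998% in EtOH libraries.

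The genes whose order of the 16 libraries was most like that of Apoa4 included Hsd17b6, Fam213a, Commd2 and Ube2l6, with a mean rank difference of 0.5 to 0.75 places. For Apob they were Fam126b, Hnf4g, Gna11, Pcsk5 and Wwc1, at 0.875 to 1.25 places. For Apoe they were C1qa, Lrrc25, C1qb, Dnase1l3 and Slfn2, at 0.750 to 1.13 places, among which C1qa and C1qb, subunits of complement C1q, are on the macrophage marker list.

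Of 83 further genes of the pathway, 75 could be tested, and 35 were lower and 7 higher with EtOH in fat-1 mice. Over all genes tested in this comparison, 37.4% passed in either direction and 18.8% were lower, which is the background for each list that follows. The 35 lower genes include 1, Gata4, and the 7 higher ones 1, Apod, that passed the filter on low counts through libraries of 1 diet only. No test is given for these genes, and their calls carry no weight here. The median log2 fold change of the 75 was -0.35. In WT mice no pathway gene other than Gata4 passed edgeR's test, against 0.0796% of all genes in either direction. Among 8 genes for lipid loading and cargo exit from the ER, 6 were lower. The largest changes were those of Pla2g12b, at -1.84 (SE 0.61, edgeR adjusted p = 0.0290), P4hb and Tm6sf2. P4hb, the protein disulfide isomerase that is the second subunit of the Mttp complex, was at -1.80 (SE 0.25, edgeR adjusted p = 0.000315). Tm6sf2 was at -1.70 (SE 0.62, edgeR adjusted p = 0.0438). In the fat-1 EtOH mice Pla2g12b spread widely, from 4.01 to 61.5 CPM, as did Tm6sf2, from 17.7 to 248 CPM. P4hb was at 871 to 1580 CPM there. Of 14 genes of the COPII coat, 8 were lower, led by the cargo-binding Sec24d at -1.93, Sec16b at -1.40 and Tfg at -1.32. Of 5 tested genes of ER to Golgi fusion, 4 were lower, with Bet1 at -1.17, Sec22b at -1.13 and Ykt6 at -0.87.

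Of 11 genes of fatty acid uptake and triglyceride synthesis, 9 were lower, and their median log2 fold change was -2.04. Fabp1, a fatty acid binding protein, averaged 4143 ± 3326 CPM (SD, n = 4) on the PF diet and 10.7 ± 3.55 CPM (SD, n = 5) on EtOH in fat-1 mice, with a log2 fold change of -8.60 (SE 1.01, edgeR adjusted p = 0.000220). Acsl5, an acyl-CoA synthetase, was at -2.57 and Fabp2 at -2.48. Of 12 transcription factors, 3 were lower and 2 higher, a share near that over all genes. The 3 include Gata4, whose call carries no weight here. Gata4, a factor of the proximal small intestine, was at 25.5 to 87.8 CPM in WT mice and 59.8 to 156 CPM in fat-1 mice on the PF diet, and at 0.168 to 0.525 CPM and 0 to 1.10 CPM on EtOH. Gata6 was at -1.25 and Nr1h3, a liver X receptor, at -1.23 in fat-1 mice. Hnf4a, a nuclear receptor of enterocytes and hepatocytes, was at 0.10 (SE 0.14, edgeR adjusted p = 0.615).

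Of the other 6 genes of the CREB3 family and its proteases, 2 were lower and 2 higher. Creb3l2 was at -2.42, while Creb3l1 was at 1.90 and Creb3l4 at 1.43. Of 4 genes of Apob mRNA editing, 2 were lower, the deaminase Apobec1 at -0.61 (edgeR adjusted p = 0.0139) and its cofactor Rbm47 at -0.52, and 2 did not pass. The median log2 fold change of the 4 was -0.21. Of 11 tested genes of lipolysis and lipoprotein receptors, 3 passed, a share under that over all genes. Vldlr, at 1.68, and Lrp1, at 0.34, were higher, and Abca1, a cholesterol exporter, was lower at -1.09. Of 10 other apolipoproteins, 4 could be tested. In fat-1 mice Apod was at 0.281 to 0.820 CPM on the PF diet and at 1.79 to 3.92 CPM on EtOH. Apoa2 had too few reads to be tested, and Apoc1 was at 0.16 (SE 0.55, edgeR adjusted p = 0.833).

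**Figure D5:**
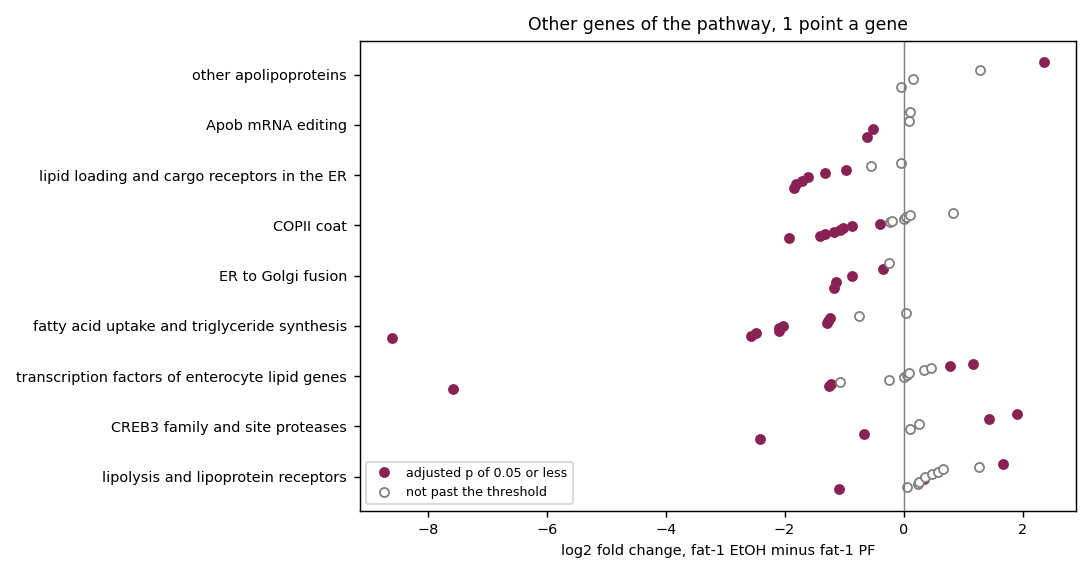
Log2 fold change of the 75 tested further genes of the pathway, fat-1 EtOH minus fat-1 PF, grouped by list, with 1 point per gene; filled points passed edgeR's test at an adjusted p of 0.05 or less. The point farthest to the left is Fabp1 at -8.60. The filled points include Gata4 and Apod, which passed the filter on low counts through 1 diet only.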

How the data were processed

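Poly(A)-selected, stranded libraries were made from ileum RNA of 16 mice. The authors aligned reads with tophat2 to mm10, and deposited raw counts of reads per Ensembl gene made with htseq, without normalization. The counting settings are not given in the sources used here. Symbols, positions and exon lengths came from GENCODE M21 (GRCm38), which lacks 26 of the 21965 genes. Promoters came from RefSeq.

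With R 4.3.3 and edgeR 4.0.16, genes were filtered with filterByExpr (13811 left, all 9 members among them), scaled with TMM and fitted with 1 mean per group in a robust quasi-likelihood model. Adjusted p-values (Benjamini-Hochberg, limit 0.05) cover all genes tested. For single genes, log2(CPM + 0.5) was also compared by exact permutation of the mice (two-sided). P-values measure the spread between these mice, and the labels name no batches. Libraries held 8422645 to 11438539 counts, and floors cover counting error only. The fit was tested on simulated data.

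The members, gene lists and tests were chosen with earlier results of these data known. Named are all members, up to 3 genes per pathway list with the largest change among those called in fat-1 mice, Sar1a, P4hb, Apobec1, Apoa2, Apoc1 and Hnf4a, the 5 genes most alike in rank order to Apoa4, Apob and Apoe (apart from 1 that is not reported here), and marker genes by mean CPM. Albumin, C1qa and C1qb were singled out after their values were seen. Alternatives were DESeq2 1.42.0, limma 3.58.1 voom with quality weights, other scalings and filters, fits of the groups compared alone, the replicate number as a block, an epithelium score as covariate, and leaving out each library. Leaving out libraries by their markers was added after seeing the data. Tables and figures were made with python 3.11.15 and matplotlib 3.10.9.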

Additional observations from a re-analysis of the deposited data

Results flagged for a closer look

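WT PF mouse 4 stood apart from the other 3 mice of its group in 2 members. For Apoa1 its gap to the nearest mouse was 0.834 of the range of the group on the log2(CPM + 0.5) scale, at 6004 CPM against 9525 to 10443 CPM. For Sar1b the gap was 0.861 of the range, at 160 CPM against 209 to 218 CPM. Both exceed Dixon's 95% critical value for 4 samples, out of 26 groups of members examined, and chance alone passes this limit in about 1 in 20 groups. This mouse was also the lowest PF mouse for Apoa4, Apoc3, Mttp and Creb3l3, and had the highest summed markers of ileal bile acid handling in the PF groups, 6804 CPM. The part of this in its low values was not tested.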

How the results depend on the processing

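The numbers of members past the threshold given here are of the 8 other than Apoc2, each with the share of all genes past it in the same fit. In WT EtOH against WT PF mice the number, 0 in the fit of all groups, was 3 with DESeq2 (1.86%), 4 with limma voom (20.7%), 6 with only the WT groups fitted (8.32%), and 5 without the libraries high in large intestine markers and the fat-1 PF libraries low in ileal markers (3.41%). Leaving out single mice gave 0 to 1, with Creb3l3 called without WT PF mouse 4 (0.479%). In fat-1 EtOH against fat-1 PF mice the number, 5 in the fit of all groups, was 6 with DESeq2 (40.2%), with Apoa1 added. The same 6 passed without the libraries high in large intestine markers (29.7%). The number was also 6 without these and the fat-1 PF libraries low in ileal markers (1626 of 13716 genes). It was 4 of 7 tested with the stricter filter (38.7%), which removed Apoc3, and 4 with only these groups fitted (23.2%) and without fat-1 PF mouse 4 (29.7%), where the call of Mttp was lost. Averaged over the genotypes the number, also 5, was 4 to 6 leaving out single mice. It was 6 with DESeq2 or limma voom (38.9% and 42.5%), with Apoa1 added. The fits without libraries chosen by their markers also gave 6 (4534 of 13778 and 3781 of 13716 genes). Without a filter it was 4 (26.4%), where Mttp was lost, and with the stricter filter 4 of 7 (37.4%). Apart from the gene removed by the stricter filter, the cause of these changes was not tested. Replicate numbers do not pair the mice: same-numbered mice had a mean correlation of deviations of -0.0225 over 21 pairs, against 0.00703 over 74 other pairs. With the replicate block, which in effect drops fat-1 EtOH mouse 5, the numbers were 5 in fat-1 and 0 in WT mice, with 4748 and 18 genes called in all, against 5170 and 11.

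Of 1358 values of single members under the alternatives, 28 changed sign, all of them of values that had not passed the test. For Apoe in fat-1 mice the log2 fold change was 0.045 with upper-quartile scaling, -0.60 to 0.097 leaving out single mice (above 0 without fat-1 PF mouse 2 or 4 or fat-1 EtOH mouse 3 or 4), and 0.32 and 0.69 in the fits without libraries chosen by markers. In those fits its mean over the genotypes was 0.067 and 0.26, and its difference between the PF groups -0.15 in the second. The Apoe difference between the EtOH groups was -0.15 with the block and -0.15 to 0.54 leaving out single mice, and its interaction -0.11 with limma voom, -0.40 with the block and -0.39 to 0.30 leaving out single mice (below 0 without fat-1 PF mouse 1 or fat-1 EtOH mouse 5). Between the EtOH groups, the fits without libraries chosen by markers gave 0.15 and 0.15 for Apoa1, 0.23 and 0.22 for Apoa4, 0.60 and 0.60 for Apoc3 and 0.057 and 0.052 for Creb3l3. Apoc3 there was -0.71 to 0.012 leaving out single mice. Apob was 0.22 between the PF groups with the epithelium covariate, and its interaction 0.066 in the second fit. At this depth, Apoc2 in EtOH mice is below what 3 reads allow.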
